A study of Mus musculus with 3 samples.

Results

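The ligands and receptors that steer growing axons were followed through the wall of the developing mouse small intestine. Members were all gene symbols of the semaphorin, plexin, neuropilin, Slit, Robo, ephrin, Eph, netrin, UNC5 and Dcc families, found by a symbol pattern. The pattern uses no measured value, but it was chosen with earlier results of these data known. The pattern took 73 of 22100 symbols: 35 ligands, 35 receptors and 3 genes that share only the spelling (Unc50 and the antisense transcripts Plxna4os1 and Plxna4os2). The receptors were counted by family name and include Unc5cl, which is not known as a guidance receptor. Tissue came from wild-type, untreated mice of 3 ages (E15.5 and E17.5 embryos and P7 pups), with 1 droplet library for each stage. Viable cells had been sorted as Epcam+ or as Epcam-/CD31-/CD45-, so epithelial cells entered through one gate, and endothelial and blood cells were depleted. Strain, sex and the number of pooled animals are not given in the sources used here, and the genotype and treatment were the same in all groups.

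Guidance molecules work as pairs of a cue and a sensor. Secreted semaphorins act through neuropilins and plexins, and membrane semaphorins act through plexins directly. Slits bind Robo receptors, netrins bind Dcc and the UNC5 receptors, and ephrins bind Eph receptors between touching cells, with signals running into both cells. In the gut these systems are known from the migration of enteric neural crest cells and their axons, from vessels, and from the Eph and ephrin gradient that sorts epithelial cells along the crypt axis.

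Cells were assigned to neuron-like, glia-like, visceral-muscle-like, fibroblast-like and epithelium-like classes from marker genes, none of which was a member. At E15.5, E17.5 and P7 the neuronal class held 588, 700 and 171 cells, the glial class 235, 750 and 58, the muscle class 886, 1194 and 81, the fibroblast class 3559, 5191 and 1072, and the epithelial class 1330, 1485 and 6042. None of the neuronal, glial, muscle, fibroblast or epithelial markers was at 0 in its own class at any stage. The cells were gated on these same markers, so this is no independent check of what the classes are. Levels are given as CPM, the molecules of a gene (UMIs, unique molecular identifiers) scaled to 1000000 UMIs of a class. The glial class at P7 held 159377 UMIs, and the visceral muscle class at P7 held 527098, so both give wide intervals. Erythroid markers, which include haemoglobin genes, summed to between 1216 and 15270 CPM in the 5 classes of the embryonic libraries and to between 16.03 and 357 CPM at P7, and their part in the results was not tested.

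Each stage is 1 library, so no test between stages is possible and every interval (95%) covers counting error only. A member was counted as higher or lower when its level differed at least 2-fold with an interval that left out equal levels, among genes with 25 or more UMIs over both groups. The share of all genes that passed the same rule is given beside each count as the background. Fewer cells of a subtype and less RNA per cell cannot be told apart in these class sums.

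Of the 73 members, 39 reached 40 CPM in 1 of the 5 classes or in a kind of fibroblast in at least 1 library: 20 ligands, 18 receptors and Unc50. Levels in smaller classes, such as mural cells, did not enter these counts or the rankings that follow. Unc50, which is no guidance gene, lay between 37.5 and 81.6 CPM in all 5 classes. Of the 34 members under 40 CPM there, 13 were also under 10 CPM in each of these classes and kinds. Just under 40 CPM were Efnb2 at 39.6 CPM and Epha7 at 38.8 CPM, and just over that level Sema7a at 42.8 CPM and Sema6c at 43.1 CPM. The class with the highest level was the same at all 3 stages for 44 members: neuronal for 18, fibroblast for 15, epithelial for 6, glial for 3 and muscle for 2. This ranking asked for no fold, interval or number of UMIs. It includes low members such as Ntn5, at most 1.49 CPM and with 7 UMIs in the P7 library. The share over all genes was not computed, so the 44 are not read as a trait of the members. Robo3 had 1 UMI in all 3 libraries, and Robo4, a Robo of endothelial cells, had 11, 7 and 0 UMIs. Plxna4os1 and Plxna4os2, which lie within Plxna4 on the opposite strand, had 26 and 7 UMIs at most in 1 library, and both had 0 UMIs at P7. A gene with 0 UMIs in a whole library may have been left out of it before deposit, so these are not read as absent.

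**Figure D1:**
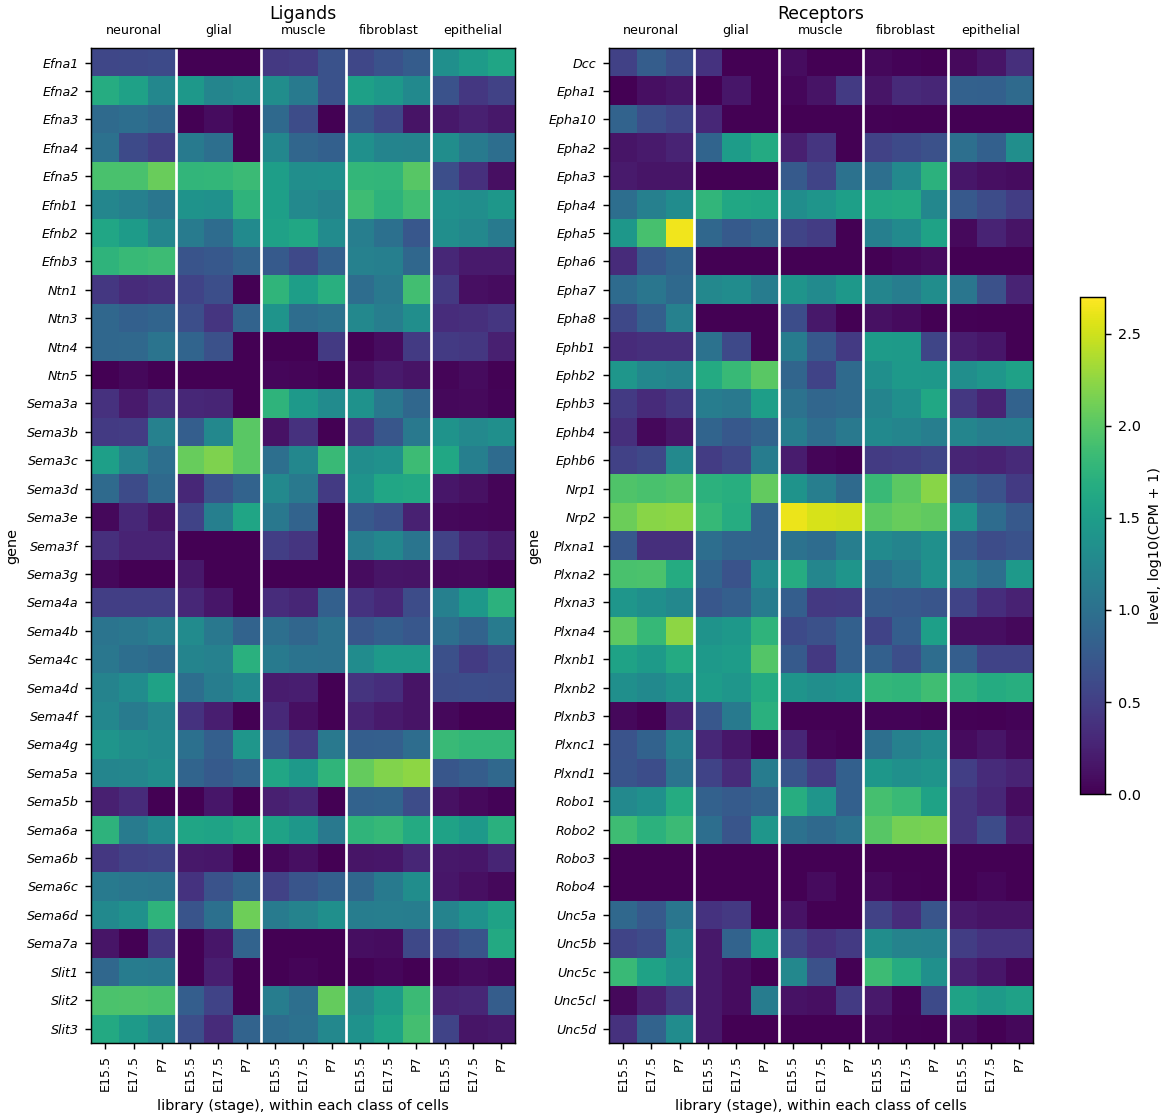
Heat maps of the level of each ligand (left) and receptor (right) as log10(CPM + 1), in the neuronal, glial, muscle, fibroblast and epithelial classes, each with its 3 libraries in order of age. The brightest cells are Epha5 in the neuronal class at P7 (438 CPM) and Nrp2 in the muscle class (324 to 413 CPM).

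Among the ephrins, Efna5, a GPI-anchored ligand of EphA receptors, stood in the neuronal class at 82.6, 83.3 and 119 CPM in order of stage. In the fibroblast class it stood at 60.6, 58.3 and 98.1 CPM, and in the epithelial class it was at most 3.42 CPM. Efnb3, a transmembrane ephrin, was a neuronal gene: 56.3, 64.8 and 70.2 CPM there, against at most 14.2 CPM in the fibroblast class. Efnb1 was led by the fibroblast class with 71.3, 54.2 and 74.2 CPM. Efna2 stood in the neuronal class at 45.7, 34.1 and 16.9 CPM, and that class had its highest level at E15.5 and E17.5 but not at P7. Efna1 was the highest ephrin A under 40 CPM, with 21.2, 29.1 and 38.0 CPM in the epithelial class, and Efnb2 reached 39.6 CPM in the muscle class at E17.5.

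Among the Eph receptors, Epha5, on chromosome 5 from 84054761 to 84417382 (GRCm38, minus strand), was highest in the neuronal class at every stage. Its level there was 25.7 CPM (22.1 to 29.8), then 81.9 (75.3 to 88.9), then 438 (412 to 466) in order of stage. In the fibroblast class it stood at 13.6, 18.4 and 34.7 CPM at the same stages. The 3 neuronal intervals did not overlap. Epha2 stood in the glial class at 6.45, 29.7 and 43.9 CPM, and Ephb2 there at 43.2, 65.4 and 100 CPM. Epha4, which binds both ephrin classes, stood in the glial class at 59.1, 40.0 and 37.7 CPM. Epha3 and Ephb3 were fibroblast receptors, Epha3 with 8.74, 17.45 and 53.6 CPM and Ephb3 with 15.4, 20.9 and 39.3 CPM. Among the kinds of fibroblast, Ephb1 was highest in the deep kind, described further on. Below 40 CPM, Epha7 reached 38.8 CPM and Ephb4 reached 21.1 CPM, each in a fibroblast kind.

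Semaphorins were spread over all 5 classes. Sema5a was highest in the fibroblast class, with 113, 153 and 174 CPM. Of the 5 classes, Sema3c was highest in the glial class, with 118, 150 and 100 CPM. The P7 interval was wide (57.4 to 163), and the adventitial kind of fibroblast stood higher at P7, at 185 CPM. Sema4g, a transmembrane class 4 semaphorin, was steady in the epithelial class at 66.2, 61.1 and 61.0 CPM. Sema3a, a secreted repellent that acts through neuropilin 1, was highest of the 5 classes in muscle, with 55.9, 27.0 and 19.0 CPM. It was not confined to muscle, since a kind of fibroblast reached 56.1 CPM. Sema3b and Sema6d stood in the glial class at 5.46, 17.4 and 100 CPM and at 3.97, 8.92 and 126 CPM. Sema6a, a transmembrane semaphorin, was found in each of the 5 classes, between 11.4 and 62.7 CPM. It stood at 58.1, 62.7 and 43.7 CPM in the fibroblast class and at 34.9, 27.2 and 50.9 CPM in the epithelial class. Sema4c stood in the fibroblast class at 19.5, 27.2 and 27.3 CPM and Sema6c at 6.98, 11.7 and 19.8 CPM. Sema3d stood there at 23.1, 38.4 and 42.0 CPM. Sema3e was the highest semaphorin under 40 CPM, with 37.6 CPM in the glial class at P7 from 6 UMIs.

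Of their receptors, Nrp2 stood in the visceral muscle class at 413 CPM (400 to 427), 340 (329 to 351) and 324 (278 to 377). The neuronal class came next with 122, 167 and 175 CPM, then the fibroblast class with 105, 119 and 110. Nrp1 was highest among fibroblasts at E17.5 and P7, with 104 and 163 CPM, after 65.8 CPM at E15.5. Plxna4, a partner of neuropilins, stood in the neuronal class at 107, 64.0 and 173 CPM, and Plxna2 there at 84.1, 85.0 and 45.0 CPM. Plxnb3 was highest in the glial class, with 4.47, 11.9 and 50.2 CPM, and was under 1 CPM in each of the other 4 classes at every stage. Its counts were small, with 17, 64 and 21 UMIs in the whole libraries. Plxnb2 lay between 45.1 and 54.0 CPM in the epithelial class and between 57.9 and 73.5 CPM in the fibroblast class. Plxnb1 stood in the neuronal class at 34.8, 28.4 and 43.3 CPM and in the glial class at 27.3, 29.97 and 94.1 CPM. Plxnd1, a plexin known from vessels, stood in the fibroblast class at 25.7, 21.8 and 24.2 CPM. Plxnc1 was the highest plexin under 40 CPM, with 38.3 CPM in a fibroblast kind.

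Among the Slits and Robos, Slit2 held a level of 84.2, 87.6 and 83.6 CPM in the neuronal class. Slit3 stood there at 42.8, 28.9 and 18.6 CPM, and in the fibroblast class at 23.0, 35.8 and 76.7 CPM. Slit1 was neuronal and low, between 6.90 and 12.6 CPM. Robo2 was led by the fibroblast class, with 97.6, 137 and 142 CPM, and had 71.1, 53.6 and 67.6 CPM in the neuronal class. Robo1 stood in the fibroblast class at 80.0, 67.0 and 34.9 CPM. Robo2 in the muscle class, at most 9.49 CPM, was within 2 times the level that stray fibroblast RNA would give there (5.08 to 9.68 CPM) and is not read as expression.

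Netrin 1, which attracts through Dcc and repels through UNC5 receptors, stood in the muscle class at 56.9, 31.8 and 49.3 CPM. Ntn1 in the fibroblast class moved from 8.33 (7.33 to 9.44) and 11.3 (10.1 to 12.6) to 75.6 CPM (68.3 to 83.4) at P7. Ntn3 was the highest of the other netrins in the 5 classes, with 24.0, 8.30 and 9.49 CPM in the muscle class. Of the receptors, Unc5c stood at 67.3, 34.9 and 23.4 CPM in the neuronal class and at 70.0, 45.4 and 21.8 CPM in the fibroblast class. Dcc was low everywhere, with 2.30, 5.20 and 3.47 CPM in the neuronal class. Unc5cl, a relative of the UNC5 receptors that is not known as a netrin receptor, was epithelial at 34.99, 28.4 and 34.4 CPM.

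**Figure D2:**
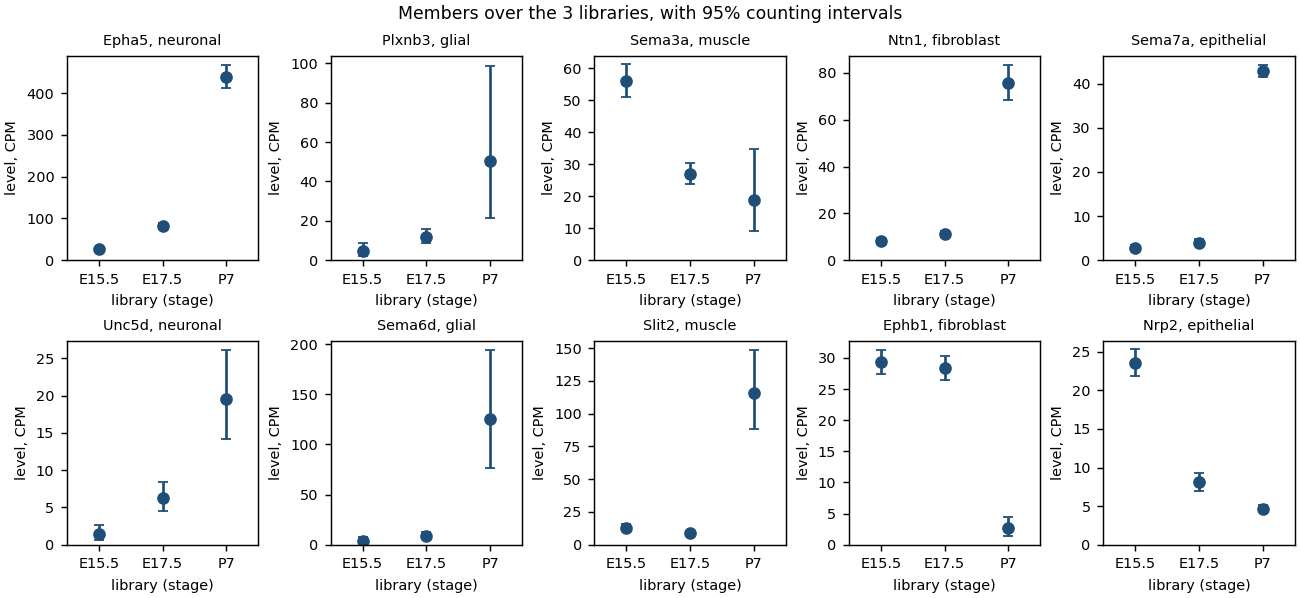
Level in CPM of 10 members, 2 for each of the neuronal, glial, muscle, fibroblast and epithelial classes, at E15.5, E17.5 and P7, with points as the library value and bars as exact Poisson 95% intervals of the counts. Epha5 reaches 438 CPM in the neuronal class at P7, while Ephb1 drops from 28.3 to 2.67 CPM in the fibroblast class between E17.5 and P7.

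In the neuronal class, the members that were higher at E17.5 than at E15.5 were all receptors. Of 53 members with enough UMIs, 4 were higher (background 4.05%) and 5 were lower (background 1.38%). The 4 were Unc5d (1.44 to 6.21 CPM), Epha6 (1.15 to 4.48), Epha5 (25.7 to 81.9) and Dcc (2.30 to 5.20). The log2 ratio of Epha5 was 1.67 (1.42 to 1.92). Sema6a went from 55.3 to 12.4 CPM, a log2 ratio of -2.16 (-2.51 to -1.81), and Plxna1, Efna4, Sema3d and Sema3c were the other 4 that were lower. Of 25 receptors 4 were higher and 1 was lower, and of 27 ligands 0 were higher and 4 were lower. The members' median log2 ratio was 0.00665, beside -0.0758 over all genes.

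From E17.5 to P7 the same class had 13 of 50 members higher (background 14.0%) and 1 lower (background 4.38%). With median ratio scaling in place of UMI totals, which subtracts 0.225 from every log2 ratio, the split was 9 higher and 4 lower. Of the 13, 10 were receptors, and 3 of 25 ligands were higher. Epha5 gained a log2 ratio of 2.42 (2.27 to 2.57) on top of the earlier step. Unc5d went from 6.21 to 19.5 CPM and Unc5b from 3.18 to 19.1, both UNC5 receptors. Ephb6 went from 2.89 to 17.8 CPM and Plxnd1 from 3.32 to 9.96. Sema3b, from 2.02 to 14.3 CPM, was the one among the 6 largest ratios that is a ligand. Plxna4, at a log2 ratio of 1.43 (1.23 to 1.63), had been at 107 CPM at E15.5 and 64.0 at E17.5. Efna2 was the lower member, at -1.01 (-1.54 to -0.52). Over this step enterocyte markers in the neuronal class went from a sum of 57.6 to 638 CPM and epithelial markers from 139.9 to 483 CPM, and their part in these ratios was not tested.

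In the glial class, between E15.5 and E17.5, 6 of 38 members were higher (background 5.88%) and 1 was lower (background 1.51%). Unc5b went from 1 UMI to 27 UMIs (0.497 to 6.18 CPM, log2 ratio 3.64 with an interval of 1.04 to 8.99). Sema3e went from 2.48 to 13.5 CPM, Epha2 from 6.45 to 29.7, Sema3b from 5.46 to 17.4 and Plxnb3 from 4.47 to 11.9. Sema6d, from 3.97 to 8.92 CPM, was near the limit of the rule, with an interval of the log2 ratio from 0.05 to 2.48. Ephb1 went the other way, from 9.43 to 2.97 CPM.

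From E17.5 to P7, 9 of 29 members were higher (background 11.3%) and 1 was lower (background 3.12%) in the glial class. Sema6d led with a log2 ratio of 3.81 (2.96 to 4.63), and Sema3b followed with 2.53 (1.65 to 3.32). Unc5b reached 31.4 CPM, Sema4g 25.1, Plxnb3 50.2 and Sema4c 50.2, each from 4 to 8 UMIs. Nrp2, which had 46.2 CPM at E17.5, had 1 UMI at P7, a log2 ratio of -2.88 (-8.19 to -0.39). Fibroblast markers summed to 866 CPM in the P7 glial class, with 4 of 10 at 0, against 109 and 132 CPM in the embryonic glial classes, and enterocyte markers summed to 1380 CPM against 27.8 and 79.8. Their part in these ratios was not tested. Expected stray RNA for Sema6d there was 0.89 CPM and for Sema3b 0.535 CPM.

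In the visceral muscle class, no member passed the rule upward between E15.5 and E17.5. Of 47 members, 0 were higher (background 3.96%) and 13 were lower (background 7.83%). With median ratio scaling, which subtracts -0.269, 2 were higher and 9 were lower. Unc5c went from 17.3 to 3.72 CPM, a log2 ratio of -2.22 (-2.77 to -1.70). Plxna2, a plexin of Sema3 and Sema6 signalling, went from 46.0 to 16.5 CPM, Plxna3 from 5.34 to 1.81, Ntn3 from 24.0 to 8.30, Epha8 from 3.33 to 0.477 and Ephb1 from 12.5 to 4.48. Ephb1 was the one ratio that changed sign with clusters in place of the marker gate, to 0.97. Its level in muscle cells outside the visceral class, those with little Actg2, was 106 CPM at E15.5. The median log2 ratio was -0.641 over the members and -0.288 over all genes. Stray fibroblast RNA expected in this class was 9.91% of the fibroblast level at E15.5 and 3.71% at E17.5. Fibroblast markers summed to 2301 and 2269 CPM there, and the part of stray RNA in these ratios was not tested.

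From E17.5 to P7, 5 of 39 members were higher (background 8.53%) and 4 were lower (background 2.99%) in the muscle class. Slit2 moved most, from 8.68 CPM (6.99 to 10.7) to 116 CPM (88.5 to 149). This was above the 68.3 CPM of the fibroblast class as a whole at P7, but a kind of fibroblast reached 129 CPM. Sema3c went from 16.6 to 66.4 CPM, Sema5a from 27.8 to 56.9, Sema4g from 2.00 to 11.4 and Epha3 from 2.58 to 9.49. Robo1, a receptor of Slit2, was at 24.9 CPM at E17.5 and had 3 UMIs (5.69 CPM) at P7, a log2 ratio of -2.13 (-4.42 to -0.57). Sema3d, with 1 UMI at P7, had a log2 ratio of -2.58 (-7.90 to -0.07), and Sema6a and Efnb2 were also lower. In the P7 muscle class, fibroblast markers summed to 3940 CPM against 2269 at E17.5, mural markers to 1294 against 420, and enterocyte markers to 3385 against 63.8. Their part was not tested, and the stray fibroblast RNA expected for Slit2 at P7 was 2.86 CPM and for Sema3c 2.90 CPM.

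In the fibroblast class, between E15.5 and E17.5, 3 of 58 members were higher (background 7.62%) and 2 were lower (background 2.75%). Median ratio scaling, which subtracts -0.134, gave 4 higher and 0 lower. Sema3b went from 1.65 to 4.28 CPM, Epha1 from 0.439 to 1.097 and Plxna4 from 2.53 to 5.45. Sema3a went from 23.0 to 11.0 CPM and Unc5a from 72 UMIs to 35 UMIs, with a log2 ratio of -1.02.

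From E17.5 to P7, 10 of 55 members were higher (background 11.9%) and 6 were lower (background 4.45%), and with median ratio scaling, which subtracts 0.149, 9 were higher and 9 were lower. Netrin 1 led: Ntn1 had a log2 ratio of 2.74 (2.53 to 2.96). Plxna4 followed at 2.56 (2.24 to 2.89), then Unc5a, Sema4a, Sema3c and Epha3. Slit2 (29.5 to 68.3 CPM) and Slit3 (35.8 to 76.7 CPM) were also among the 10. Ephb1 went from 28.3 CPM to 2.67 CPM, a log2 ratio of -3.41 (-4.28 to -2.65). Epha4 (42.6 to 16.6 CPM), Unc5c, Efnb2, Sema3e and Efna3 were the other lower members. Muscle markers in the fibroblast class summed to 1256 CPM at E17.5 and 4185 CPM at P7, enterocyte markers to 312.7 and 981 CPM, and mural markers to 499 and 701 CPM. Their part in these ratios was not tested.

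The make-up of the fibroblast class differed between libraries, so the same genes were read within kinds of fibroblast, defined by markers that were no members. Mucosal fibroblasts numbered 288, 1335 and 479 cells and deep fibroblasts 253, 1056 and 51. The kinds were not cleanly apart in their markers. Markers of the mucosal kind summed to 3384 and 3720 CPM in it at E15.5 and E17.5, but to 4950 and 7557 CPM in the subepithelial kind. Markers of the outer kind summed to 2119 CPM in it at E17.5, and to 2337 CPM in muscle cells with little Actg2. Ntn1 in the mucosal kind stood at 6.46, 6.88 and 50.3 CPM, and in the deep kind at 9.46, 13.8 and 60.4 CPM, so the late gain was present within both. Another kind reached 119.5 CPM, and the part of make-up in the ratio of the whole class was not tested. Slit2 stood at 2.58, 3.57 and 40.0 CPM in the mucosal kind and reached 129 CPM in another kind. Plxna4 reached 47.2 CPM in the mucosal kind at P7 and 8.63 CPM in the deep kind. Epha3 was 4.63 CPM at E17.5 and 4.45 CPM at P7 in the mucosal kind, and 129 CPM in the adventitial kind, which had 195 cells at P7 and 42 at E17.5. Sema3c was likewise 185 CPM in the adventitial kind at P7 and 17.4 CPM in the mucosal kind. Ephb1 in the deep kind went from 69.9 CPM at E17.5 to 21.6 at P7 and was about 1 CPM or less in the mucosal kind at each stage. Epha4 was 36.1 CPM at E17.5 and 34.5 at P7 in the deep kind, and 181 CPM in the subepithelial kind, which fell from 200 cells at E17.5 to 7 cells at P7. The deep kind held 231786 UMIs at P7, so its levels there rest on few UMIs and have wide intervals. The part of make-up in the step of Epha4 was not tested.

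**Figure D3:**
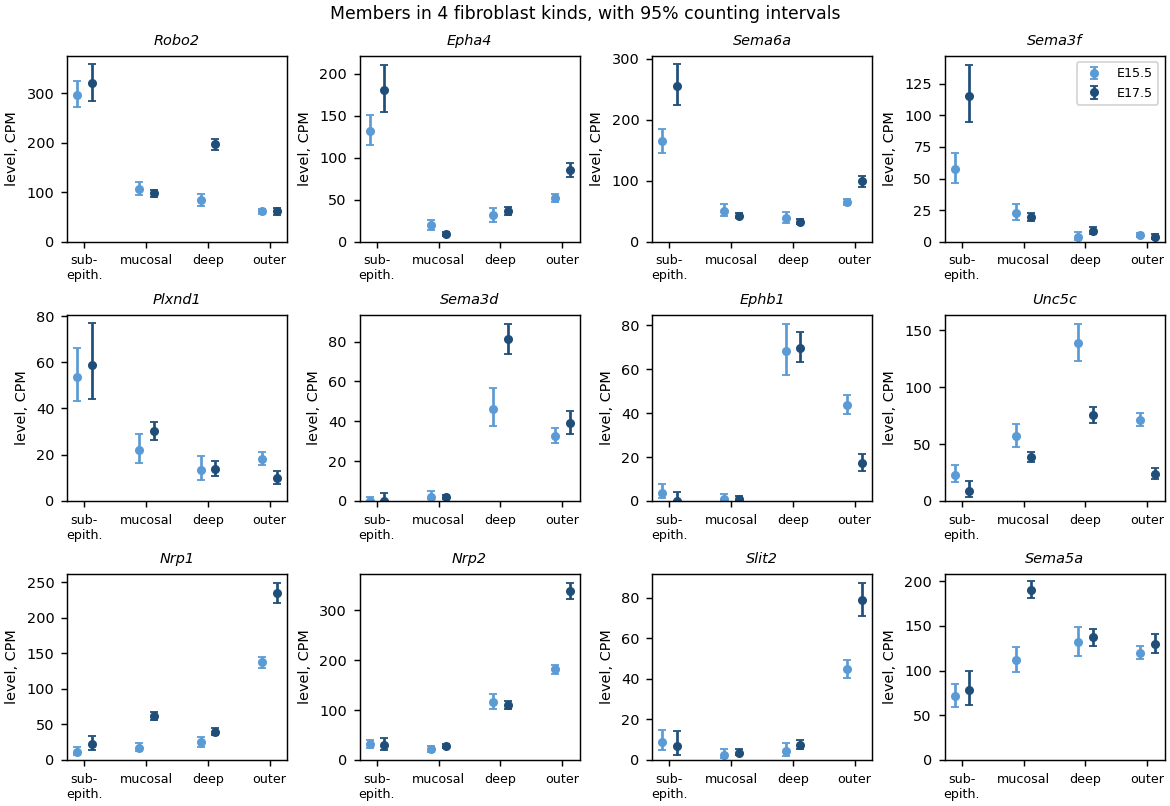
Level in CPM of 12 members in the subepithelial, mucosal, deep and outer fibroblast kinds at E15.5 (light) and E17.5 (dark), with exact Poisson 95% intervals of the counts. Robo2, Epha4, Sema6a and Sema3f were highest in the subepithelial kind, Sema3d and Ephb1 in the deep kind, and Nrp1, Nrp2 and Slit2 in the outer kind.

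The kinds of fibroblast divided the members at a single stage too. In the subepithelial kind, which lies beneath the epithelium, Robo2 stood at 297 CPM at E15.5 and 321 at E17.5, against 61.8 and 61.5 in the outer kind. Sema6a stood there at 165 and 256 CPM and Sema3f at 57.3 and 115 CPM. The outer kind had Nrp1 at 137 and 235 CPM, Nrp2 at 182 and 338 and Slit2 at 44.7 and 78.8. Sema3d had 0 UMIs in the subepithelial kind at both stages, with upper limits of 2.18 and 4.09 CPM, and 46.3 and 81.1 CPM in the deep kind.

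In the epithelial class, between E15.5 and E17.5, 2 of 51 members were higher (background 7.06%) and 9 were lower (background 5.85%). Nrp2 went from 23.6 to 8.08 CPM, Sema3c from 40.0 to 13.7 and Epha7 from 10.6 to 3.64. Ntn1 (1.79 to 0.293 CPM), Slit3 (2.47 to 0.419) and Efna5 (3.42 to 1.34) were lower at low levels. Epha5 and Robo2 were higher at 0.837 and 3.10 CPM.

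From E17.5 to P7, 7 of 52 members were higher (background 12.1%) and 8 were lower (background 8.85%). Sema7a, a GPI-anchored semaphorin that binds integrins and plexin C1, went from 3.98 CPM (3.22 to 4.86) to 42.8 CPM (41.5 to 44.2). Ephb3 went from 0.879 to 6.05 CPM, Slit2 from 0.963 to 5.30, Epha2 from 5.65 to 20.7, Plxna2 from 8.46 to 28.2 and Dcc from 0.419 to 1.30. Sema4a, also higher, was 13.9, 26.3 and 53.6 CPM over the stages. Efna5, Robo1, Robo2, Epha7, Plxnc1 and Ntn4 had the lowest ratios, all at levels between 0.155 and 0.838 CPM at P7. The P7 epithelial class held 1590 crypt-like and 2709 enterocyte-like cells, and the E17.5 class 79 and 343.

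The members' median log2 ratio from E15.5 to E17.5 was -0.128 in the glial class, 0.0541 in the fibroblast class and -0.461 in the epithelial class, beside 0.0396, -0.0853 and -0.121 over all genes. From E17.5 to P7 it was 0.229 in the neuronal class, 0.791 in the glial class, 0.219 in the muscle class, 0.155 in the fibroblast class and 0.0316 in the epithelial class. The medians over all genes were then 0.203, 0.163, 0.153, 0.168 and 0.0674.

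**Figure D4:**
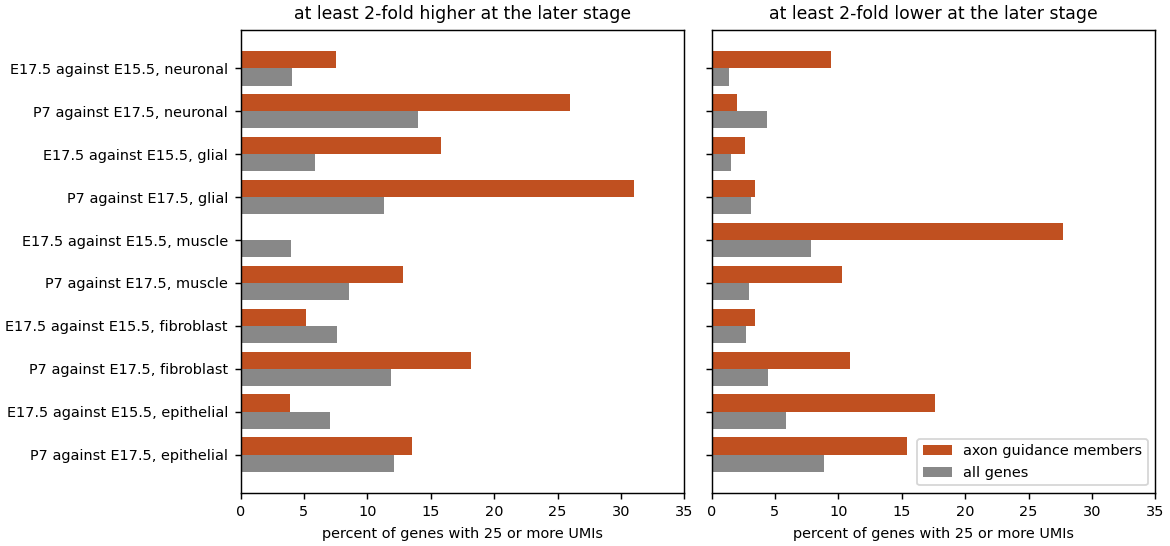
Percent of axon guidance members (orange) and of all genes (grey) that were at least 2-fold higher (left) or lower (right) at the later stage, among those with 25 or more UMIs, for each class and step. The muscle class from E15.5 to E17.5 has 27.7% of members lower against 7.83% of all genes, and the glial class from E17.5 to P7 has 31.0% higher against 11.3%.

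Within each library the neuronal class was set against the fibroblast class. At E15.5, 17 of 60 members were higher in the neuronal class (background 21.5%) and 23 were lower (background 21.4%). At E17.5, 21 of 63 were higher (background 22.2%) and 26 were lower (background 22.6%). At P7, 17 of 53 were higher (background 23.4%) and 20 were lower (background 21.1%). The 6 largest ratios on the neuronal side at E15.5 were those of Ntn4, Slit1, Epha10, Plxna4, Sema4f and Sema4d, and at E17.5 those of Unc5d, Slit1, Dcc, Epha6, Ntn4 and Epha8. Plxna4 at E15.5 was 107 CPM against 2.53 CPM. Sema4f and Sema4d, class 4 semaphorins, were 16.5 and 35.1 CPM in the neuronal class at P7 and had 2 UMIs each in the fibroblast class, log2 ratios of 5.43 (3.48 to 8.53) and 6.52 (4.62 to 9.59). At P7 the fibroblast class had 0 UMIs of Epha8, Slit1 and Unc5d, so that against a floor of 3 UMIs over the class these were at least 25.0-fold, 20.4-fold and 34.1-fold higher in the neuronal class. On the fibroblast side, Ephb1 was 29.3 CPM against 1.15 at E15.5, and at P7 Epha3 was 53.6 CPM against 1 UMI (log2 ratio -6.95, -12.3 to -4.46) and Ntn1 75.6 CPM against 3 UMIs (-5.86, -8.14 to -4.30). Sema3a, Sema3f, Epha3, Ephb1 and Ephb4 were among the 6 lowest ratios at both E15.5 and E17.5.

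At P7 the epithelial class divided into cells of a crypt gate and cells of an enterocyte gate, and 3 receptors of the B ephrins lay on the crypt side. Of 42 members, 21 were higher in the crypt gate (background 28.3%) and 7 were lower (background 19.2%). Ephb2 was 60.4 CPM in the crypt gate and 21.7 in the enterocyte gate, Ephb3 14.3 and 1.99, and Ephb4 29.7 and 3.65. Among the ephrins, Efnb2 was 5.28 CPM in the crypt gate and 14.2 in the enterocyte gate, while Efnb1 was higher in the crypt gate, 34.5 against 15.9, and Efna4 23.8 against 1.62. The largest ratios on either side were those of Sema6a, 1.245 CPM against 96.4, and Nrp1, 3.70 against 0.164. Sema5a (18.1 against 0.862 CPM), Plxnb1, Epha4 and Sema3c were also higher in the crypt gate. Sema4a (24.9 against 73.6), Sema3b (11.4 against 30.4), Sema6b and Epha1 were lower. Dcc had 1 UMI in the crypt gate against 85 UMIs, a log2 ratio of -5.53 (-10.8 to -3.01). Fibroblast markers summed to 48.5 CPM in the crypt gate and 40.0 CPM in the enterocyte gate.

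**Figure D5:**
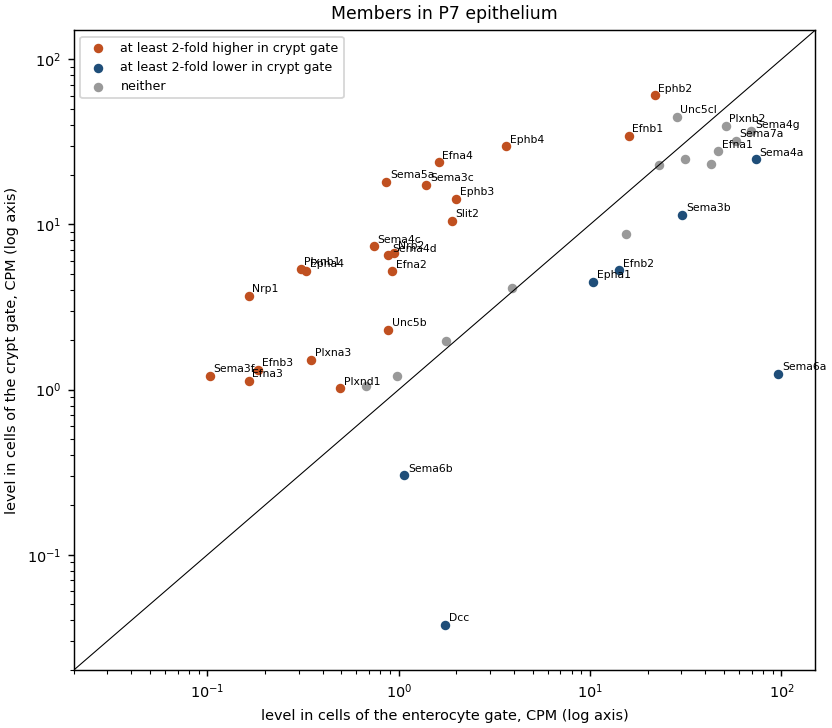
Level of each member with 25 or more UMIs in cells of the enterocyte gate (horizontal) and the crypt gate (vertical) at P7, both in CPM on log axes, with the line of equal levels. Ephb2, Ephb3 and Ephb4 lie above the line and Sema6a, at 96.4 against 1.245 CPM, lies farthest below it.

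The RefSeq promoter windows of Ephb2, Ephb3 and Efnb2 are shown since these genes divided between the 2 gates in opposite directions. Each covers 300 bases around the gene's start, most of them upstream, and is written 5′ to 3′ on the gene's strand (GRCm38.p6): Ephb2 at chr4:136835963-136836262 (minus), Ephb3 at chr16:21204545-21204844 (plus) and Efnb2 at chr8:8661193-8661492 (minus). Capitals mark the E-box CANNTG.
Ephb2: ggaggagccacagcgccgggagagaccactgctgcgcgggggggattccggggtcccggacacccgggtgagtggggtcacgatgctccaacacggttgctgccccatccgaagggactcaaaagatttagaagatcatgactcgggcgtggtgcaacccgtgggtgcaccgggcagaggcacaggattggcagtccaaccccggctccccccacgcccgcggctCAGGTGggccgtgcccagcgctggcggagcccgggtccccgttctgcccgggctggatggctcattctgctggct
Ephb3: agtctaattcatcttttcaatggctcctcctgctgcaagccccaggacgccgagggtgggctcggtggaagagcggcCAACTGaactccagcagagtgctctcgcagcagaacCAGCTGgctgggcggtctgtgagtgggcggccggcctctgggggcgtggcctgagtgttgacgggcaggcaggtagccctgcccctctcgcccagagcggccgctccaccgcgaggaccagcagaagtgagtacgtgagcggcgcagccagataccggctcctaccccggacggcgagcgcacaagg
Efnb2: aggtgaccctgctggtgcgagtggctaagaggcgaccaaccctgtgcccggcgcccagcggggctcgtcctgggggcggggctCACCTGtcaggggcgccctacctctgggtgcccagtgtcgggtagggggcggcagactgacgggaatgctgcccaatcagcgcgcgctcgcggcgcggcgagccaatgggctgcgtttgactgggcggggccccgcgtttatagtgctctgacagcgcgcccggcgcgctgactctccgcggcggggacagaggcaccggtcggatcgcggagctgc
The TCF motif, CTTTGA or CTTTGT on either strand, had 0 matches in each of the 3 windows, and 31.2% of 32851 windows in the RefSeq table hold it. The E-box, searched next and after the first motif had given no match here, occurs 1 time in the Ephb2 window, 2 times in the Ephb3 window and 1 time in the Efnb2 window, and 72.3% of all windows hold it. A match is a description of these letters and not a site.

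Other genes of the guidance pathways were counted in a list of 61 genes. It holds the collapsin response mediators (Crmp1, Dpysl), the Mical cytoskeletal proteins and adhesion molecules like L1cam. Ligands and receptors that are no members, such as Cxcl12 and Ret, are also in it. In the neuronal class, 1 of 56 was higher (background 4.05%) and 4 were lower (1.38%) from E15.5 to E17.5, and 9 of 55 were higher (14.0%) and 0 were lower (4.38%) from E17.5 to P7. In that later step Mical2 went from 1.88 to 9.96 CPM, while Crmp1, at 438 and 240 CPM, and Vav3, at 4.76 and 2.17, had the lowest ratios without passing the rule. In the glial class 3 of 46 were higher (background 5.88%) and 3 lower (1.51%) in the first step, and 15 of 45 were higher (11.3%) and 0 lower (3.12%) in the second. In the muscle class 2 of 47 were higher (background 3.96%) and 3 lower (7.83%) in the first step, and 6 of 41 were higher (8.53%) and 0 lower (2.99%) in the second. Fibroblasts had 1 of 54 higher (background 7.62%) and 0 lower (2.75%) in the first step, and 5 of 52 higher (11.9%) and 5 lower (4.45%) in the second. The 1 gene of the first step was Rnd1, from 0.641 to 6.07 CPM. In the second step Cxcl12, a chemokine, went from 298 to 1167 CPM and Dpysl3 from 38.8 to 145. The epithelial class had 5 of 53 higher (background 7.06%) and 8 lower (5.85%), then 3 of 52 higher (12.1%) and 10 lower (8.85%). Ret, the receptor of GDNF, was 42.0 CPM in the P7 enterocyte gate and 2.23 in the crypt gate.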

How the data were processed

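Single-cell 3′ RNA counts were measured in 3 libraries of mouse small intestine, 1 each at E15.5, E17.5 and P7. The authors deposited unnormalized UMI counts, 1 whole number for each gene in each cell. The submitters' processing notes name Cell Ranger 7.2.0 with mm10 and GRCm38 as builds, while parameters are not given in the sources used here. Libraries held 8447, 11598 and 8391 cells and 93501273, 94023160 and 116038115 UMIs, with medians of 8503, 6262.5 and 14014 UMIs per cell. The barcode names of the 3 libraries are the same 8447 names, so barcodes shared between libraries could not be counted and were not used.

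Doublets marked by Scrublet (scanpy 1.11.5, expected rate 6%, seed 0), 243, 453 and 389 cells, were removed. Each cell received the class with the highest mean log-scaled marker expression relative to that class's threshold, if it reached the threshold and was 1.25 times the next class. Visceral muscle cells also needed Actg2 UMIs of at least 0.2 times their Acta2 UMIs. Thresholds and this ratio were set after the marker distributions had been seen, and the ratio replaced a first idea (the mean of Actg2 and Des) after a view that also showed Ntn1 and Sema3d. Classes under 50 cells were left out. UMIs were summed per class and scaled to CPM, and levels have exact Poisson intervals and ratios exact conditional binomial intervals at 95% (numpy 2.4.6, scipy 1.17.1). These cover counting error only. Expected stray RNA is the lower quartile, over the source class's markers, of their level elsewhere as a share of their level in the source, times the source's level.

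The members and lists were chosen with earlier results of these data known. Members at 40 CPM or more in the 5 classes or the fibroblast kinds were described, with the highest of the others in each family and, for each comparison, at most 6 ratios in each direction. Part of the results that this rule names are not reported here beyond the counts. The crypt against enterocyte comparison was added after member levels had been seen, and the genes drawn in the plots were picked with their values known. All 73 members matched the GENCODE annotation of GRCm38, and 61 had a RefSeq promoter window. The calling rule was tested on simulated data. Alternatives were another gate (stricter, looser, Leiden clusters), no doublet removal, median ratio scaling, other UMI filters and a 1.5-fold threshold.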

Additional observations from a re-analysis of the deposited data

Results flagged for a closer look

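For 5 members the step from E17.5 to P7 went in opposite directions in 2 classes or more, each past the 2-fold rule, and the difference between classes was not tested. The share of all genes that did so was not computed, so this count is not read as a trait of the members. Stray fibroblast RNA expected in the epithelial class was 0.587% of the fibroblast level at E17.5 and 0.102% at P7. Its part in the epithelial ratios below was not tested. Epha5 had a log2 ratio of 2.42 in the neuronal class (81.9 to 438 CPM) and -1.13 in the epithelial class, where it was 0.837 and 0.383 CPM with 0.108 and 0.162 CPM expected from stray RNA. Nrp1 had 1.23 in the glial class (48.3 to 113 CPM, from 18 UMIs at P7) and -1.06 in the epithelial class (3.94 to 1.89 CPM). Plxnc1 had 1.19 in the neuronal class (6.06 to 13.9 CPM) and -1.43 in the epithelial class (0.419 to 0.155 CPM). Robo1 had 1.03 in the neuronal class (21.8 to 44.6 CPM), -2.13 in the muscle class (24.9 to 5.69 CPM, from 3 UMIs at P7) and -2.21 in the epithelial class (1.00 to 0.217 CPM). Sema3d had 1.21 in the neuronal class (3.18 to 7.36 CPM) and -2.58 in the muscle class, where 1 UMI was left at P7 and 1.76 CPM was expected from stray RNA.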

How the results depend on the processing

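The 15 counts were recomputed under up to 8 alternatives, and 103 of these recounts stayed within 1.5 times the reported count while 13 did not. With a filter of 100 UMIs in place of 25, fewer genes could pass: the neuronal class had 3 members called in the first step (2.7% of all genes under the same setting) and 5 in the second (13.8%), the glial class 1 (4.97%) and 4 (16.2%), the muscle class 6 in the first step (8.44%), the epithelial class 7 in the first step (9.23%), and the neuronal class against fibroblasts at P7 21 (40.9%). At a 1.5-fold threshold, more passed: 16 in the neuronal class (11.9% of all genes), 25 in the muscle class (29.1%), 15 in the fibroblast class (23.6%) and 19 in the epithelial class (25.2%) in the first step, and 29 in the fibroblast class (29.8%) in the second. The stricter gate gave 5 called members in the muscle class in the second step (11.0% of all genes), and the cause was not tested. Of 1040 recomputed ratios of named members, 951 kept their direction and their side of the rule, 88 kept the direction but no longer passed, and 1 changed sign: Ephb1 in the muscle class from E15.5 to E17.5, at 0.97 with Leiden clusters, the cause of which was not tested. A 1.5-fold threshold and no filter only loosen the rule, so all 130 named ratios had to stay the same under each. The filter of 100 UMIs could change no direction. No paired analysis was possible because each stage is 1 library, and no replicate could be left out. Median ratio scaling also subtracts -0.352 in the glial class and -0.121 in the epithelial class at the steps to P7 and E17.5, 0.192, 0.263 and 0.359 between neuronal and fibroblast classes in order of stage, and 0.171 between crypt and enterocyte gates, and it moved none of the 14 counts by over 1.5 times. Alternatives for the crypt comparison and for the number of members at 40 CPM in the 5 classes were chosen after seeing the data. The depth of the P7 glial and muscle classes limits what can be called there.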

Other observations

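Cell classes outside the 5 described also held members at high levels, but they are less firmly defined. Of the 140 cells of the interstitial cell of Cajal gate at E15.5, 74 lay within 10% of the threshold, 67 passed the stricter gate, and no Leiden cluster matched the gate, while 233 of the 268 cells at E17.5 were also in a matching cluster. No Leiden cluster matched the mural gate (72, 187 and 78 cells) at E15.5 or P7. In cells of the interstitial cell of Cajal gate, the pacemaker cells of the gut, Nrp2 stood at 618 CPM at E15.5 (140 cells) and 902 CPM at E17.5 (268 cells), Nrp1 at 300 and 239 CPM, Sema5a at 158 and 176, and Sema6a at 141 and 160. Unc5c was 119 and 81.9 CPM there, and Epha4 87.7 and 139.

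In the mural gate, which takes pericytes and vascular muscle, Sema5b stood at 64.3, 104 and 99.9 CPM at E15.5, E17.5 and P7 and was at most 6.41 CPM in the 5 main classes. Plxnd1, a plexin known from vessels, was 69.7, 66.7 and 132 CPM there, and Sema6d was 83.1, 141 and 49.97 CPM. Endothelial markers in the mural gate summed to 103, 178 and 386 CPM, with 3, 1 and 6 of 8 at 0, and their part in these levels was not tested. In muscle cells with little Actg2, Ntn4, a netrin of basement membranes, had 0 UMIs at E15.5 and E17.5. The upper limits were 2.89 and 13.1 CPM, and Ntn4 stood at 53.5 CPM at P7. Slit3 was 29.7, 67.7 and 169 CPM there. This gate held 166, 52 and 244 cells, and no Leiden cluster matched it at E15.5 or E17.5. Markers of the outer fibroblast kind summed to 1994, 2337 and 26.3 CPM in it, and mural markers to 336, 577 and 1771 CPM. The levels of Ntn4 and Slit3 are thus not read as a change within a single cell type, and the part of make-up in them was not tested.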
